A study of Capra hircus with 9 samples.

Results

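The genes described here encode the proteins of the cytosolic ribosome and of the mitochondrial ribosome. They were chosen by symbol, though with earlier results of these data known: RPL or RPS followed by a number and at most 1 of the letters A, X, L or Y, together with RPLP0, RPLP1 and RPLP2, for the cytosolic family, and MRPL or MRPS followed by a number for the mitochondrial family. Of the 25671 genes in the count table, 145 met the rule: 75 cytosolic genes, of which 30 belong to the small and 45 to the large subunit, and 70 mitochondrial genes, of which 23 belong to the small and 47 to the large subunit. The values come from poly(A) RNA of the uterus of Liaoning Cashmere goats (Capra hircus), a fibre breed, at day 6, day 16 and day 19 around implantation, with 3 libraries per day. No treatment or genotype is given, and the labels do not say from what event the days run. Nothing states that the libraries of a day came from different animals, and a p-value here sets a difference only against the spread among these libraries, some of which may be technical. The labels also differ on the source of the RNA: the tissue is given as uterus, the title speaks of endometrial epithelium, and a protocol speaks of testis.

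Cytosolic ribosomes translate messenger RNA from nuclear genes, and their proteins are needed in near equal numbers, so the genes are known for moving together. Their messenger RNAs begin with a run of pyrimidines (the TOP motif), through which growth signals acting on mTOR set how much of them is translated. Mitochondrial ribosomes translate only the few proteins encoded in the mitochondrial genome, all subunits of oxidative phosphorylation, and all of their own proteins are imported from the cytosol. Around implantation the ruminant uterus is known for a high output of secreted proteins from its glands and lining.

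The libraries held 8712751 to 11074693 counts, with 18530 to 19243 genes detected. Levels are given as CPM, the counts of a gene scaled to a common library total with the TMM factors of edgeR. They are not per gene length, so they are compared between libraries and never between genes. As to the labelled source, the summed level of 4 epithelial markers ranged from 460.9 to 1036 CPM over the libraries, that of 5 stromal fibroblast markers from 15650 to 29800 and that of 5 smooth muscle markers from 7018 to 34410, so that RNA of the uterine wall as well as of epithelium was present. Of 4 testis germ cell markers 3 were in the table, SYCP3 was at 0 throughout and the sum of the 3 stayed at 0.09713 to 1.983 CPM. In bulk samples, fewer cells of a type and less RNA per cell cannot be told apart.

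Many members have other rows in the count table that name the same protein. The table held 783 further rows described as ribosomal proteins, 774 of them named only by a locus number, which took 1.5715% to 4.163% of the counts of a library. For 69 of the 75 cytosolic members at least 1 such row names the same protein (650 rows), and for 21 members these rows held over 50% of the summed counts, with RPS15 (92.9%), RPS24 (90.5%) and RPS27 (87.8%) highest. The matching by name could assign no row to RPL3L, RPL10L or RPS27L, and a row described as S27-like would be counted for RPS27. The mitochondrial family was less affected: 20 of 70 members had such rows (25 rows), and only MRPS36, at 87.9%, had most of its summed counts there. The level of a single member with many such rows is therefore uncertain, since reads can be split between them.

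Day 19 replicate 1 stood apart from the other day 19 libraries in both families. Cytosolic members held 3.93%, 4.23% and 4.23% of the counts in the day 6 libraries, and 4.20%, 3.997% and 4.62% at day 16. At day 19 they held 2.62% in replicate 1, 7.04% in replicate 2 and 6.03% in replicate 3, so that replicate 1 was the lowest and the others the highest of all 9 libraries. The mitochondrial members showed the same order on a smaller scale, with 0.207% to 0.230% in the day 6 and day 16 libraries and 0.195%, 0.356% and 0.331% at day 19. The means were 4.13% ± 0.171, 4.27% ± 0.317 and 5.23% ± 2.32 for the cytosolic family and 0.221% ± 0.0098, 0.215% ± 0.0068 and 0.294% ± 0.0869 for the mitochondrial family (SD, n = 3 each). The ratio of large to small subunit counts among cytosolic members was 1.37 ± 0.0066 at day 6, 1.37 ± 0.0214 at day 16 and 1.31 ± 0.018 at day 19. Small as the shift was, each day 19 library (1.31, 1.2925 and 1.3284) lay below every earlier library (1.3517 to 1.3915).

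**Figure D1:**
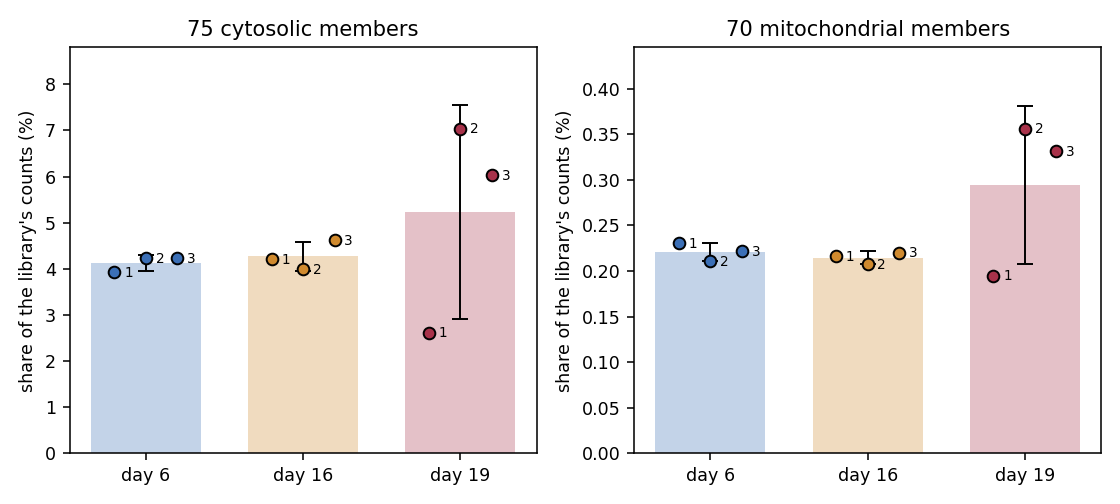
Share of each library's counts (%, vertical axis) held by the 75 cytosolic members (left) and the 70 mitochondrial members (right), by day; points are libraries with their replicate number, bars are means of 3 and error bars are SD. The 3 day 19 libraries lie at 2.62%, 7.04% and 6.03% (left) and at 0.195%, 0.356% and 0.331% (right), around the narrow day 6 and day 16 groups.

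The split of the day 19 libraries ran through nearly the whole of both families. Of the 145 members, 73 cytosolic and 70 mitochondrial genes passed the low-count filter. Replicate 1 of day 19 was the lowest of the 9 libraries for 59 of the 73 cytosolic members (80.8%), against 16.7% of all genes tested. Replicate 2 was the highest for 67 of them (91.8%, against 17.5% of all genes). For the mitochondrial members these counts were 14 of 70 (20%) for replicate 1 as the lowest and 45 of 70 (64.3%) for replicate 2 as the highest. Replicate 3 was the highest for 19 further mitochondrial members.

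Expressed as a ratio of CPM + 0.5, replicate 2 exceeded replicate 1 at day 19 by a median of 2.96-fold over the cytosolic members, with a range of 1.51 to 5.24, and all 73 were above 1. The median was 2.08 over the mitochondrial members (range 0.898 to 3.52, with 67 of 70 above 1) and 1.00 over all genes tested, whose central 80% lay between 0.381 and 2.31. Replicate 3 exceeded replicate 1 in the same way, with medians of 2.59 and 1.87, and the ratio of replicate 3 to replicate 2 had medians of 0.869 and 0.905. The smallest cytosolic ratios of replicate 2 to replicate 1 were those of RPL6 (1.51) and RPL5 (1.65), a large subunit protein that carries 5S rRNA into the ribosome. The largest were those of RPS24 (5.24) and RPL36A (5.22). Other rows of the same protein held 75.1% of the summed counts for RPL6, 83.3% for RPL5, 90.5% for RPS24 and 52.3% for RPL36A. The levels of these single members are therefore uncertain. Among mitochondrial members, MRPS30, MRPS35 and MRPS9 had the lowest ratios, at 0.898, 0.932 and 0.951, while MRPL41 had 3.52 and MRPS34 3.44. These 9 genes were chosen for their place at the ends of the range, after their values were seen.

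**Figure D2:**
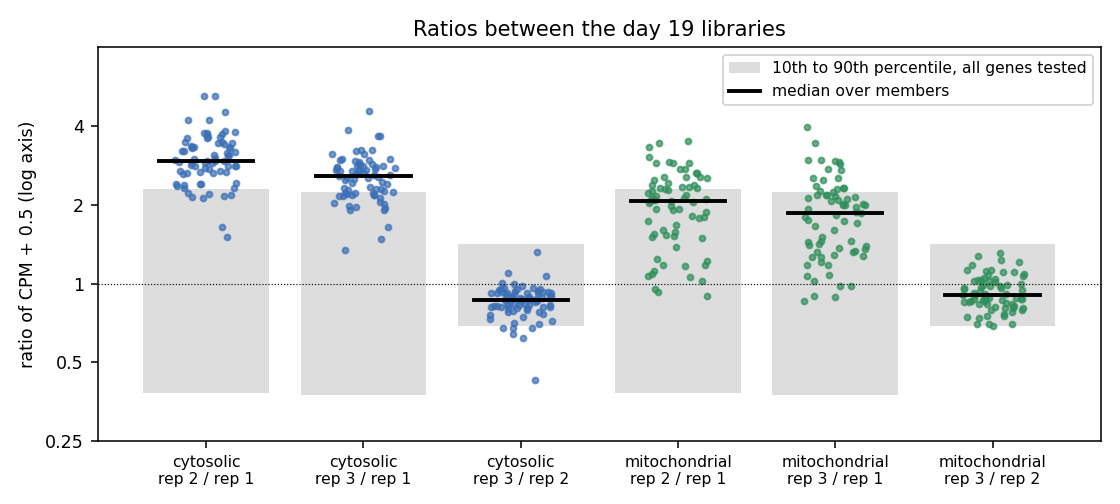
Ratio of CPM + 0.5 between pairs of day 19 libraries (vertical axis, log scale) for each tested member; points are genes, black bars are the medians of the family and grey bands span the 10th to 90th percentile of all 16098 genes tested. Cytosolic members lie above 1 in both ratios to replicate 1, with medians of 2.96 and 2.59, and near 1 between replicates 3 and 2 (median 0.869).

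Centred per gene and expressed as log2 CPM, the cytosolic family median was -0.318, -0.0935 and -0.134 in the day 6 libraries, and -0.0671, -0.162 and -0.0122 at day 16. At day 19 it was -0.710, 0.889 and 0.627. The mitochondrial family median lay between -0.241 and -0.139 in the day 6 and day 16 libraries, and was -0.251, 0.740 and 0.675 at day 19. The median of all genes tested stayed between 0.0052 and 0.0232 in every library. The mitochondrial family thus lay just below its earlier range in replicate 1 of day 19, whereas the cytosolic family there lay below every day 6 and day 16 library. Around these medians the central 80% of the cytosolic members spanned -0.952 to -0.375 in replicate 1 and 0.517 to 1.23 in replicate 2 of day 19, ranges that do not meet.

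**Figure D3:**
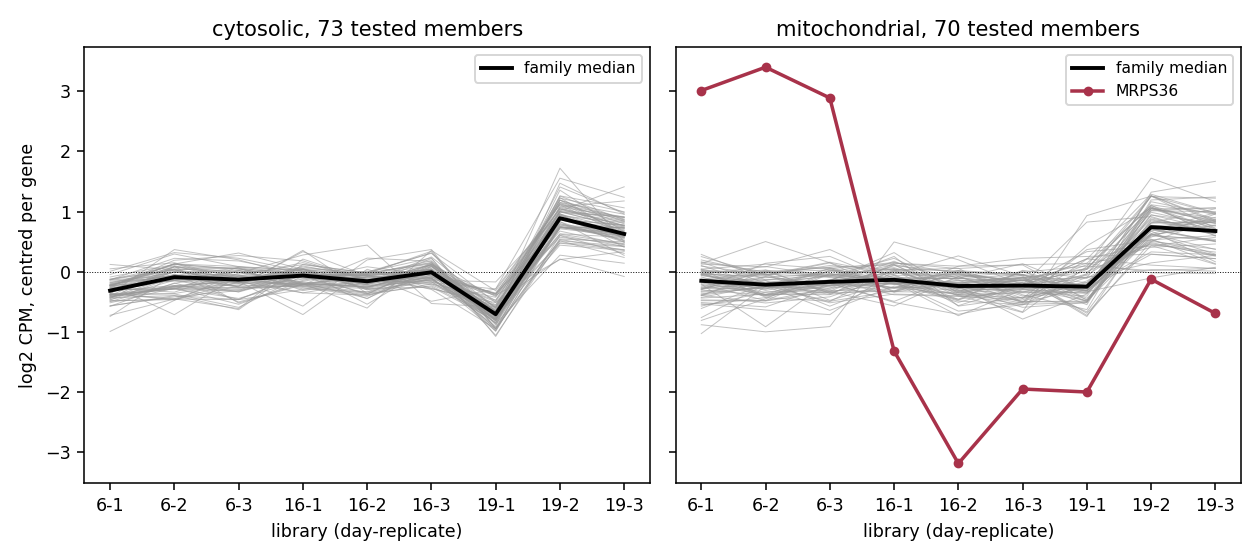
Log2 CPM of every tested member, centred on its mean over the 9 libraries (vertical axis), by library (horizontal axis, day-replicate); thin grey lines are genes, black lines are family medians and lines only join a gene's values. The cytosolic median falls to -0.710 in day 19 replicate 1 and stands at 0.889 and 0.627 in replicates 2 and 3, and MRPS36 (red) leaves the mitochondrial family between day 6 and day 16.

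Each pair of days was compared by the quasi-likelihood test of edgeR on all 9 libraries, and a gene was called at an adjusted p under 0.05 (Benjamini-Hochberg, over all 16098 genes tested). Between day 6 and day 16 the cytosolic family differed little, with 52 of 73 members positive and 21 negative (8042 and 8056 of all genes). None of its 73 tested members was called by edgeR (0 had an unadjusted p under 0.05), where 5.12% of all genes were called higher and 3.74% lower. The median log2 fold change was 0.11, against -0.0003 over all genes. DESeq2 called 0 members and 2238 of the 21550 genes in its fit. The lowest unadjusted p belonged to RPS27 (0.134), a zinc finger protein of the small subunit, with 79.1, 81.2 and 68.9 CPM at day 6 and 117, 106 and 133 at day 16. Those groups do not overlap, yet the difference of 0.63 ± 0.39 (log2, SE) did not pass (adjusted p = 0.425). RPS28, another small subunit protein, stood at 221 ± 12.8 and 311 ± 47.6 CPM (adjusted p = 0.457).

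From day 16 to day 19, 69 of the 73 cytosolic members had a positive log2 fold change (median 0.51) and 0 were called by edgeR, with 9 at an unadjusted p under 0.05. Of all genes, edgeR called 0.516% higher and 0.683% lower. DESeq2 called 1 member and 1659 of the 21550 genes in its fit. From day 6 to day 19 the median was 0.64, with 3 members called higher and 0 lower, where 12.7% of all genes were called higher and 10.2% lower. The members' share, 3 of 73, lay below that background. DESeq2 called 19 members, all told, and 4887 of the 21550 genes in its fit. The 3 called by edgeR were RPS9, RPS28 and RPS27L, all of the small subunit.

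RPS9, which helps to shape the small subunit's messenger RNA path, had the largest difference. It stood at 304, 367 and 364 CPM in the day 6 libraries, 409, 486 and 357 at day 16, and 412, 1481 and 1188 at day 19. Replicate 1 of day 19 lay within the day 16 range and the other day 19 libraries above all others. Day 19 exceeded day 6 by 1.57 ± 0.40 (log2, SE; adjusted p = 0.0213). RPS28 stood at 225, 231 and 206 CPM at day 6 and at 259, 685 and 574 at day 19, without overlap (1.20 ± 0.32, adjusted p = 0.0262). RPS27L, a paralog of RPS27 known as a p53 target, had 38.3, 38.4 and 32.9 CPM at day 6 and 37.8, 103 and 89.5 at day 19, so that replicate 1 lay inside the day 6 range (1.07 ± 0.31, adjusted p = 0.0364). All 3 calls were lost when any 1 day 6 library, or replicate 2 or 3 of day 19, was left out, with an adjusted p of up to 0.0784 for RPS9, 0.0954 for RPS28 and 0.128 for RPS27L; the RPS27L call was also lost without any 1 of the day 16 libraries. Rows of the same protein elsewhere held 12.1% of the summed counts for RPS9 and 3.86% for RPS28. No share can be given for RPS27L, since the matching by name could not assign a row to it.

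The acidic stalk proteins, which recruit elongation factors to the large subunit, did not pass in any comparison. RPLP0, the stalk base, had 2269, 2906 and 2742 CPM at day 6, 2625, 2457 and 2190 at day 16, and 1865, 3968 and 3665 at day 19. Its day 19 libraries lie on both sides of all the others (day 19 against day 6, 0.26 ± 0.31, adjusted p = 0.552). RPLP1 was at 96.6 ± 1.09, 102 ± 7.52 and 178 ± 77.7 CPM and RPLP2 at 448 ± 34.0, 423 ± 20.3 and 600 ± 297. RPS6, the substrate of S6 kinase, and RPL11, which together with RPL5 can bind MDM2, likewise had a day 19 SD of 155 around 306 CPM and of 242 around 595. RPL3 and RPL10, 2 core proteins of the large subunit near its catalytic centre, stood at 1455 ± 587 and 1512 ± 731 CPM at day 19, against 1045 ± 36.7 and 1107 ± 106 at day 6. RPS27A, made as a fusion with ubiquitin, stood at 304 ± 16.9 and 500 ± 248 (SD, n = 3 each throughout).

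Both paralogs known from restricted tissues failed the low-count filter. RPL3L, the striated muscle copy of RPL3, had 9, 16 and 6 counts in the day 6 libraries, 2, 1 and 2 at day 16 and 3, 1 and 0 at day 19. RPL10L, a testis-enriched copy of RPL10, had 2, 4 and 3 counts at day 6, 36, 3 and 4 at day 16 and 0, 9 and 1 at day 19. The 36 counts in day 16 replicate 1 stand alone. No difference was tested for either gene.

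Without day 19 replicate 1 the picture changed, and the background changed with it. Of 16407 genes then tested, 10.7% were called higher and 9.67% lower between day 6 and day 16, 21.6% and 23.1% between day 16 and day 19, and 27.2% and 27% between day 6 and day 19. Of the 73 cytosolic members, 4 were then called higher at day 16 than at day 6 (RPS27, RPS28, RPS20 and RPS27L), 65 higher at day 19 than at day 16 and 66 higher at day 19 than at day 6, with 0 lower in each. The median log2 fold changes of the last 2 were 0.88 and 0.95. These calls rest on replicates 2 and 3 of day 19, and no label gives a reason to leave replicate 1 out. RPL5 (0.0042 from day 16 to day 19, adjusted p = 0.99) and RPL4, a protein that lines the exit tunnel (0.24, adjusted p = 0.247), were among the 8 not called from day 16 to day 19.

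From day 6 to day 16 the mitochondrial family had a median log2 fold change of 0.0059, with 36 members positive and 34 negative. Called higher were 2 members, MRPL32 and MRPL49, and called lower was MRPS36. These shares, 2 and 1 of 70, lay below the 5.12% and 3.74% of all genes called higher and lower. From day 16 to day 19 the median was 0.67, 69 of 70 were positive, 43 had an unadjusted p under 0.05, and only MRPL1 was called (higher). Of all genes, 0.516% were called higher there and 0.683% lower. From day 6 to day 19 the median was 0.68, with 18 called higher and 1, MRPS36, lower. That share of higher calls, 18 of 70, compares with 12.7% of all genes, and the 1 lower call with 10.2%. By subunit, the medians from day 6 to day 19 were 0.67 (small) and 0.71 (large), with 5 of 23 and 13 of 47 called higher. Without day 19 replicate 1, 61 were called higher from day 16 to day 19 and 59 from day 6 to day 19, with medians of 0.95 and 0.97. Over all genes, 21.6% and 27.2% were then called higher. From day 6 to day 16, 3 members were called higher and 1 lower without that library, against 10.7% and 9.67% of all genes.

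**Figure D4:**
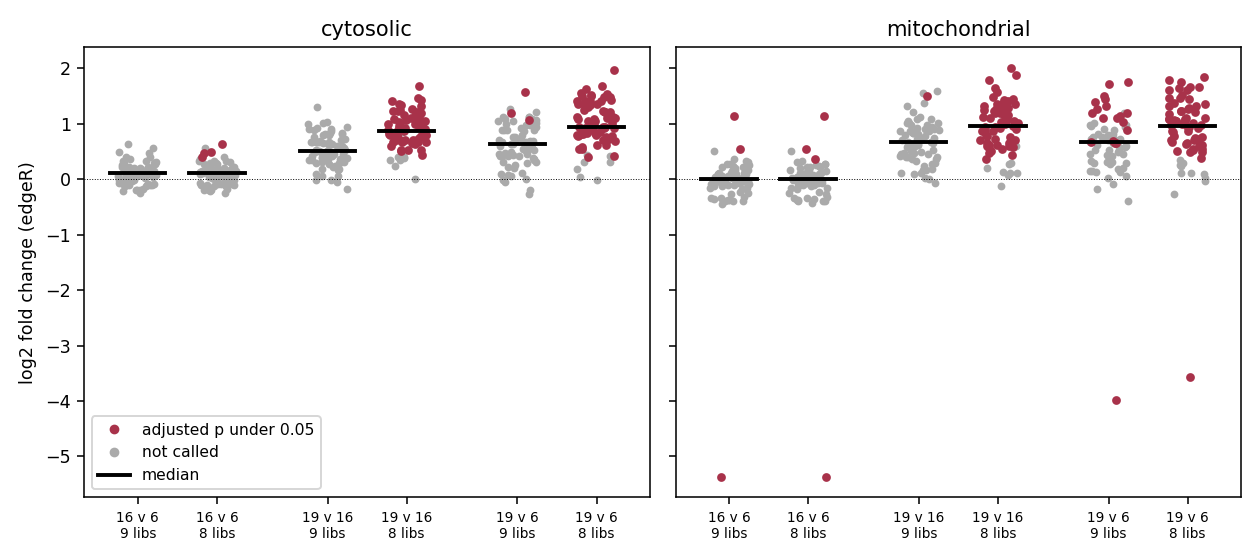
Log2 fold change of each tested member (vertical axis) in the 3 comparisons, from all 9 libraries (9 libs) and without day 19 replicate 1 (8 libs); red points had an adjusted p under 0.05 and black bars are medians. Cytosolic calls from day 16 to day 19 go from 0 to 65 and mitochondrial calls from 1 to 61, while the median of the cytosolic family goes from 0.51 to 0.88. Over all genes, the share called higher in that comparison goes from 0.516% to 21.6%.

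MRPL32, MRPL49 and MRPL1, all of the large subunit, did not follow the split of the day 19 libraries. MRPL32, whose maturation is known to need a mitochondrial protease, had 5.38, 4.94 and 5.27 CPM at day 6, 14.3, 11.6 and 8.66 at day 16 and 18.1, 19.3 and 15.4 at day 19. Day 6 lay below every later library, and replicate 1 of day 19 lay between the other day 19 libraries. It rose by 1.15 ± 0.24 from day 6 to day 16 (adjusted p = 0.0169) and by 1.76 ± 0.24 to day 19 (adjusted p = 0.00123). MRPL49 had 99.8, 104 and 104 CPM at day 6, 149, 144 and 158 at day 16 and 161, 166 and 158 at day 19, and the day 6 libraries again lay below all the others. It rose by 0.55 ± 0.14 (adjusted p = 0.0367) and 0.66 ± 0.14 (adjusted p = 0.00975). MRPL1 stepped later, with 2.41, 4.33 and 3.22 CPM at day 6, 4.32, 4.10 and 3.16 at day 16 and 10, 12.6 and 10.3 at day 19. The day 19 libraries lay above all others, with a rise of 1.504 ± 0.30 from day 16 (adjusted p = 0.0492, close to the threshold). The changes of MRPL32, MRPL49 and MRPL1 from day 6 to day 19 passed whichever library was left out. Their earlier steps did not: leaving out 1 library ended the day 16 call of MRPL32 in 5 of 9 cases (each day 6 library and replicates 1 and 2 of day 16, adjusted p up to 0.0753), that of MRPL49 in 8 of 9 (all but day 19 replicate 1, up to 0.146) and the day 19 against day 16 call of MRPL1 likewise in 8 of 9 (up to 0.197). Locus rows of the same protein held 0 of the summed counts for MRPL32 and MRPL49 and 48.3% for MRPL1.

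Of the other mitochondrial members called higher at day 19 than at day 6, MRPS10 and MRPS27 were also level across the day 19 libraries, with 57.3, 61.1 and 67.7 CPM for MRPS10 and 53.2, 59.5 and 62.6 for MRPS27 (adjusted p = 0.0151 and 0.024). The members that follow were all higher in replicates 2 and 3 than in replicate 1. MRPS33, a small subunit protein, had 10.6, 14.1 and 11.3 CPM at day 6 and 17.3, 48.3 and 36.8 at day 19 (1.51 ± 0.34, adjusted p = 0.013). MRPS11 had 23.9, 26.0 and 24.9 at day 6 and 40.6, 86.1 and 69.4 at day 19 (1.39 ± 0.26, adjusted p = 0.00594). In both genes replicate 1 of day 19 already exceeded all day 6 and day 16 libraries. MRPL47 had 13.4 ± 0.863, 19.1 ± 3.96 and 36.5 ± 7.81 CPM over the 3 days (1.44 ± 0.23 from day 6 to day 19, adjusted p = 0.00272) and MRPL11 15.6 ± 4.21, 15.6 ± 0.394 and 38.9 ± 16.4 (1.32 ± 0.35, adjusted p = 0.0232). MRPL27 stood at 65.7 ± 3.08, 84.2 ± 2.84 and 145 ± 70.8 CPM, with 63.2 in replicate 1 of day 19, below all day 6 libraries but 1 (adjusted p = 0.0399). The calls of MRPS11 and MRPL47 held whichever library was left out. That of MRPS33 was lost without day 6 replicate 1 or 3 (adjusted p up to 0.0556), that of MRPL11 without any 1 day 6 library or replicate 2 or 3 of day 19 (up to 0.0863), and that of MRPL27 without any 1 library but day 19 replicate 1 (up to 0.126). The remaining 8 calls had log2 fold changes between 0.69 (MRPS31) and 1.27 (MRPL23).

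MRPL12, MRPL41, MRPS6, MRPL17 and MRPL57 did not pass in any comparison on all 9 libraries. MRPL12, which also binds the mitochondrial RNA polymerase, stood at 41.6 ± 2.67, 32.1 ± 6.89 and 60.4 ± 24.3 CPM (adjusted p = 0.228 from day 6 to day 19). MRPL41 had 32.3, 23.5 and 27.8 CPM at day 6, 22.1, 19.3 and 22.3 at day 16 and 22.2, 79.5 and 90.1 at day 19. Its day 19 replicate 1 matched day 16 while the other libraries stood far above (1.59 ± 0.43 from day 16, adjusted p = 0.0865). MRPS6 stood at 55.7 ± 10.6, 41.1 ± 7.91 and 73.0 ± 24.6 CPM, MRPL17 at 122 ± 6.45, 147 ± 23.7 and 204 ± 85.1, and MRPL57 at 8.20 ± 1.05, 6.98 ± 1.08 and 14.4 ± 5.20. With locus rows of the same protein added, MRPL17 passed from day 6 to day 19 (0.93, edgeR adjusted p = 0.039).

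To ask which members left the trend of their own family, libraries were scaled by the median count ratio of the family's members, so that a gene moving with its family shows no difference, and an F test was made among the 3 days. Of the 73 cytosolic members 0 were called by edgeR, and DESeq2 called 1, RPS9. Of all genes, edgeR called 3.42% and DESeq2 1677 of 21550. The members themselves set this scaling, which takes out their shared change and puts it on the other genes. The share of all genes is therefore no measure of how closely a family holds together. RPS9 was also the 1 member with an unadjusted p under 0.05 (0.0199, adjusted p = 0.201), followed by RPL4 (0.0600) and RPS4X, the X-linked form of RPS4 (0.112). RPL4 had 1375, 1706 and 1598 CPM at day 6, 1374, 1194 and 1485 at day 16, and 749, 1656 and 1509 at day 19, so that replicates 2 and 3 stayed within its day 6 range. The largest root mean square distances from the family median over the 9 libraries were those of RPS9 (0.436), RPL23A (0.405) and RPL5 (0.402, on the log2 scale). RPL23A varied within days, with 71.6, 103 and 141 CPM at day 6 and 173, 194 and 98.9 at day 16. For RPL23A 78.6%, for RPL5 83.3%, for RPS4X 80.2% and for RPL4 42.5% of the summed counts lay in other rows of the same protein. With those rows added, the log2 fold change of RPL4 from day 6 to day 19 went from -0.26 to 0.25. That of RPS4X went from -0.04 to 0.12, that of RPL5 from -0.196 to 0.157 and that of RPL23A from 1.05 to 1.23.

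Of the 70 mitochondrial members 1 was called off its family, MRPS36 (adjusted p = 0.000832), where 10.1% of all genes were called under that scaling. Without day 19 replicate 1, 16 of 73 cytosolic (21.9%) and 25 of 70 mitochondrial members (35.7%) were called, as were 66.4% and 70.8% of all genes under the same scalings. Since these scalings put the shift of the family on all other genes, the shares of members and of all genes cannot be compared. Under those 8 libraries MRPL37, MRPS9, MRPS30, MRPS35 and MRPL53 were among the 25. MRPL37, MRPS9 and MRPL53 had log2 fold changes from day 16 to day 19 of 0.13, 0.12 and 0.08 by TMM, and MRPS35 and MRPS30 0.20 and -0.12, none of which passed there (adjusted p from 0.352 to 0.698), while 61 others did.

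MRPS36 was the only member whose log2 fold change fell below -1 in any comparison. It also passed the stricter filter of 1 CPM in 6 libraries, so it was not tested through its day 6 libraries alone. It had 31.6, 41.4 and 29.0 CPM at day 6, 1.37, 0.228 and 0.811 at day 16, and 0.777, 3.395 and 2.22 at day 19. Every later library lay far below day 6, and at day 19 replicate 1 was again the lowest of its group. It fell by 5.37 ± 0.60 on the log2 scale from day 6 to day 16 (adjusted p = 0.000707) and by 3.99 ± 0.54 to day 19 (adjusted p = 0.00116), and both calls held whichever library was left out. The difference of 1.38 ± 0.60 between day 16 and day 19 did not pass (adjusted p = 0.198), but passed without day 19 replicate 1 (1.79, adjusted p = 0.0139). The protein, also named KGD4, is known both from lists of mitochondrial ribosomal proteins and as a part of the 2-oxoglutarate dehydrogenase complex of the citric acid cycle, where it holds the E3 subunit.

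The identity of the MRPS36 row has a limit. Its gene identifier is absent from the reference gene table used (assembly ARS1.2), in which 135 of the 145 members' identifiers were found, 131 of them under the same symbol. There the name MRPS36 belongs to another row of the count table, LOC102180566, whose description names the same protein with the ending "like". That row had 217, 291 and 223 CPM at day 6, 12.7, 10.8 and 13.6 at day 16 and 7.19, 15.7 and 13.7 at day 19, so that day 6 again lay far above the rest. It fell by 4.29 from day 6 to day 16 (adjusted p = 0.00014) and by 4.32 to day 19. With the counts of its locus rows added, MRPS36 fell by 4.39 to day 16 and fell by 4.27 to day 19 (both past the threshold), so that the fall was present whichever row is taken.

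Values of genes next to MRPS36 in that assembly, and of its enzyme complex, were read after the fall had been seen. CCNB1, cyclin B1, had 69.8, 47.9 and 68.4 CPM at day 6 and 1.06 to 3.61 in the later libraries (a change of -4.34 to day 16, adjusted p = 0.000211). CDK7, the neighbour on the other side, had 9.23 to 13.7 CPM in all 9 libraries, and CENPH, between MRPS36 and CCNB1, 8.88 to 21.2. CCDC125, next beyond CDK7, went the other way, from 8.34 ± 1.31 CPM at day 6 to 31.1 ± 10.1 at day 16 (a change of 1.90, adjusted p = 0.00775). Markers of cycling cells, of which CCNB1 is 1 of 4, summed to 65.9 to 130.5 CPM at day 6 and 6.72 to 23.2 later, and their part in the fall of MRPS36 was not tested. OGDH, the E1 subunit of the complex, had 1447, 1438 and 1336 CPM at day 6, 538, 245 and 406 at day 16 and 255, 206 and 224 at day 19, again with day 6 above all later libraries (a change of -1.83 to day 16, adjusted p = 0.00407). DLST, the E2 subunit, stood at 122 ± 10.4, 81.9 ± 0.91 and 53.3 ± 14.7 CPM, with a change of -1.19 from day 6 to day 19 (adjusted p = 0.00341). DLD, the E3 subunit, stood at 50.1 ± 2.67, 38.3 ± 1.28 and 39.8 ± 7.72 CPM and did not pass (adjusted p = 0.201).

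**Figure D5:**
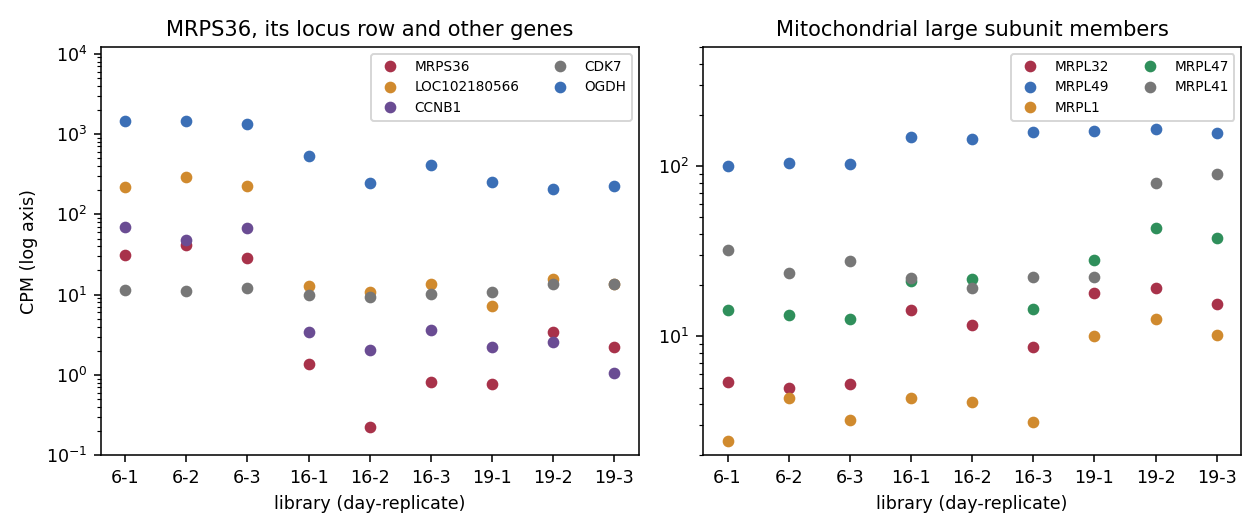
CPM (vertical axes, log scale) in each library (horizontal axis, day-replicate) of MRPS36, the locus row that carries its name in the reference, CCNB1, CDK7 and OGDH (left), and of 5 mitochondrial large subunit members (right). MRPS36 falls from 29.0 to 41.4 CPM at day 6 to 0.228 to 3.395 later, and MRPL32, MRPL49 and MRPL1 are level across the day 19 libraries while MRPL41 is at 22.2 in replicate 1 against 79.5 and 90.1.

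Other ribosomal protein genes have symbols that fall outside the rule, and their values are set beside the members here. Among 17 of them, 1 was called higher from day 16 to day 19 and 8 from day 6 to day 19, with 0 lower and a median of 0.79 in the last comparison, where 0.516% and 12.7% of all genes were called higher. Without day 19 replicate 1, 15 were called higher in each of these comparisons, against 21.6% and 27.2% of all genes. RPSA, a small subunit protein, had 1797, 4263 and 3976 CPM in the day 19 libraries. RPL7L1, which acts in assembly of the large subunit, was higher in all day 19 libraries (98.8, 157 and 146 CPM) than at day 6 (54.7, 52.0 and 50.6), and its change of 1.35 passed (adjusted p = 0.00194).

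Ribosome biogenesis factors, which process ribosomal RNA and assemble the subunits, had medians above their day 6 values in all 3 day 19 libraries. The 72 ribosome biogenesis factors had list medians of 0.218, 0.390 and 0.296 in the day 19 libraries and -0.286 to -0.246 at day 6 (centred log2 CPM). From day 6 to day 19, 30 of 72 were called higher and 1 lower (median 0.54; 12.7% and 10.2% of all genes), and 45 higher and 6 lower without day 19 replicate 1 (27.2% and 27% of all genes, the background of each 8-library count from day 6 to day 19). From day 6 to day 16 the list had 3 called higher and 0 lower (13 and 0 without that library), where 5.12% of all genes were called higher (10.7% without it). From day 16 to day 19 edgeR called 0 (30 at an unadjusted p under 0.05), where 0.516% of all genes were called higher and 0.683% lower. Without that library 35 were called higher and 6 lower, against 21.6% and 23.1% of all genes. Of 15 RNA polymerase I subunits and factors, 1 was called higher from day 6 to day 19 and 0 lower (8 and 1 without day 19 replicate 1). Translation factors of TOP messenger RNAs, 21 genes, had medians of -0.444, 0.416 and 0.187 in the day 19 libraries, and 0 were called higher and 2 lower from day 6 to day 19, which became 10 higher and 2 lower without day 19 replicate 1. One of these, EEF2, the elongation factor that moves the ribosome along, stood at 3049 ± 379, 2281 ± 138 and 1847 ± 50.5 CPM (change of -0.72, adjusted p = 0.038) and did not share the split, with 1794, 1853 and 1894 in the day 19 libraries. Of 33 initiation factors, 8 were called higher and 0 lower from day 6 to day 19, and 17 higher and 8 lower without day 19 replicate 1.

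On the mitochondrial side, the 56 nuclear subunits of oxidative phosphorylation also differed between the day 19 libraries. Their medians were -0.366, 0.822 and 0.662 in the day 19 libraries and -0.356 to -0.0233 earlier, with 2 called higher from day 16 to day 19 and 3 from day 6 to day 19 (53 and 50 without day 19 replicate 1). Of all genes, 0.516% were called higher from day 16 to day 19 (21.6% without that library). From day 6 to day 19, 12.7% were called higher and 10.2% lower (27.2% and 27% without it), which is also the background of the lists below. The 13 protein genes of the mitochondrial genome, whose messages these ribosomes translate, had 11 negative and 2 positive changes from day 6 to day 19, of which 7 were called lower and 0 higher (median -1.20; 7 lower and 1 higher without day 19 replicate 1), with medians of -1.58, -0.221 and -0.287 in the day 19 libraries. From day 6 to day 19, 2 of the 14 mitochondrial translation factors were called higher and 1 lower (6 and 2 without day 19 replicate 1). Of the 25 assembly factors of the mitochondrial ribosome 3 were called higher and 0 lower (15 and 2 without it), and of the 16 mitochondrial tRNA synthetases 1 and 1 (4 and 2 without it). The synthetases had medians between -0.107 and 0.0615 in every library, with no split at day 19.

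Cell type markers also differed between the day 19 libraries. The summed level of 4 epithelial markers was 624, 1031 and 667 CPM in replicates 1, 2 and 3, that of 3 macrophage markers 373, 491 and 432, and that of 4 T and NK cell markers 59.4, 86.6 and 70.9. These 3 lists had the same order as both ribosomal families, with replicate 1 lowest and replicate 2 highest. The endothelial sum, over 4 markers, was 696, 661 and 604, the smooth muscle sum 20280, 21220 and 34410 and the stromal sum 22810, 16290 and 25210, each in another order. The 1 trophoblast gene on the list in the table had 4.66, 0.399 and 0.529 CPM. It had 2.79, 5.66 and 3.61 CPM at day 6 and 4.74, 3.99 and 3.52 at day 16. Replicate 1 of day 19 thus lay within the range of the earlier libraries, and replicates 2 and 3 lay below it. The part of cell composition in the split was not tested.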

How the data were processed

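Poly(A) RNA of 9 goat uterus libraries, 3 per day, was isolated on magnetic beads and cut with RNase III, per the labels' protocols, and sequenced on an Ion Proton, per the series' design text. The authors deposited whole-number counts per gene in 1 table, without normalization; which aligner, counter, build and annotation they used, and whether strand was counted, is not given in the sources used here. Columns were matched to samples by title. The members and every gene list were chosen with earlier results of these data known. Of 145 members 143 passed the low-count filter.

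The tests used edgeR 4.0.16 under R 4.3.3: TMM scaling, filterByExpr on the day, and a robust quasi-likelihood model with day as its only term, fitted to the whole table of 9 libraries (16098 genes tested, common biological coefficient of variation 0.318), with Benjamini-Hochberg adjustment over all genes and calls at 0.05. Every adjusted p given is from this test unless the text names family scaling, a fit without a library, added locus rows or DESeq2 1.42.0. SE is |log2 fold change| over the root of the F statistic. CPM uses the TMM library sizes, ratios of libraries add 0.5 CPM, and centred log2 CPM uses a prior count of 2. For the family trend, library sizes were the median count ratio of the members with at least 10 counts in every library (73 cytosolic, 69 mitochondrial), and an F test was made among days. The steps were tested on simulated data. Within a day, chi-square per degree of freedom was at least 9.855 for each pair of libraries, and none was taken as a duplicate. Alternatives were DESeq2, RLE and upper quartile scaling, no filter, a filter of 1 CPM in 6 or more libraries, no robust estimation, only the libraries of the days compared, a replicate block, leaving out each library, and, added after the data were seen, locus rows of the same protein summed into the member. A split by protein length was not run because no protein table was given, and no sequences are shown. Members named are a panel of structural and paralogous members, those called with the largest change (up to 6 per family, comparison and direction) or, with none called, the lowest p, those lowest in the trend test, those of highest and lowest mean CPM, and those farthest from the family median; any other gene was picked with its values in view, as the text says.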

Additional observations from a re-analysis of the deposited data

How the results depend on the processing

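The counts of calls depended most on day 19 replicate 1. Leaving out each library in turn, cytosolic calls ranged from 0 to 4 (day 16 against day 6), 0 to 65 (day 19 against day 16) and 0 to 66 (day 19 against day 6), mitochondrial calls from 1 to 4, 0 to 61 and 6 to 60, members off the family trend from 0 to 16 (cytosolic) and 1 to 25 (mitochondrial); each highest value is that without day 19 replicate 1. DESeq2 called 1 cytosolic and 17 mitochondrial members for day 19 against day 16, 19 cytosolic members for day 19 against day 6, and 1 and 8 off the trend. Of all 21550 genes it called 1659 for day 19 against day 16 and 4887 for day 19 against day 6. Under the family scalings it called 1677 (cytosolic) and 3957 (mitochondrial) of them. When the fit held just the 6 libraries of 2 days, cytosolic calls were 4 (day 16 against day 6) and 0 (day 19 against day 6) and mitochondrial calls 0 (day 19 against day 16) and 11 (day 19 against day 6). Over all genes these fits called 3092 of 15644 (day 16 against day 6), 0 of 15605 (day 19 against day 16) and 2357 of 15673 (day 19 against day 6). With the replicate block, 1 cytosolic member was called for day 19 against day 6, and 0 and 12 mitochondrial members for day 19 against day 16 and against day 6. Of all 16098 genes, the block fit called 0 for day 19 against day 16 and 2899 for day 19 against day 6. The replicate numbers did not pair the libraries (correlations of same-numbered deviations from -0.164 to 0.153), so the block stands only here. Without the low-count filter 0 mitochondrial members were called for day 19 against day 16, where 183 of 21550 genes were. TMM scaling in place of family scaling called 1 cytosolic and 14 mitochondrial members among the 3 days, where it called 3156 of 16098 genes. With locus rows added 2 mitochondrial members, MRPL3 and MRPS36, were off the trend, where 1562 of 15811 genes were called. MRPS36 was off the trend in all 17 alternatives run. The mitochondrial median for day 16 against day 6 was -0.0418 with upper quartile scaling; no other median changed sign among these scalings and filters or moved beyond its spread. Of the changes of named members, 1752 kept their side of the threshold, 70 lost and 68 gained a call, and 0 were counted as reversed. Small changes that were not called could still change sign. With locus rows added, that of RPL4 from day 6 to day 19 went from -0.26 to 0.25. Apart from the values above, the cause of these moves was not tested. Depth limits RPL3L and RPL10L, with at most 36 counts in a library.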
